A study of Rattus norvegicus with 6 samples.

Results

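The genes of the replicative helicase MCM2 to MCM7, of the sliding clamp PCNA and of cyclin D1 were followed in GH3 cells, a line from a rat pituitary tumour that secretes prolactin and growth hormone. The 8 genes were taken by Ensembl identifier, in the order Mcm2, Mcm3, Mcm4, Mcm5, Mcm6, Mcm7, Pcna and Ccnd1, and all 8 were present among the 18413 genes of the deposited table. The rule that takes them uses identifiers alone. The study compared 3 control libraries with 3 libraries of cells treated with thyrotropin-releasing hormone (TRH) at 100 nM, to see which messenger RNAs differ after the hormone. Every library came from the same wild-type line in F10 medium with 15% horse serum and 2.5% fetal bovine serum. Treatment time and any vehicle in the controls were not given in the sources used here. Since no label states that samples of a group were grown separately, the p-values rest on a spread between samples that may be technical.

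MCM2 to MCM7 are related ATPases that assemble into a ring of single copies around DNA. The ring is loaded at replication origins in the G1 phase by the origin recognition complex with Cdc6 and Cdt1, and it becomes the active helicase of the fork when Cdc45 and the GINS complex join it. PCNA is a trimeric clamp that holds DNA polymerases on the template behind the helicase. Cyclin D1 acts earlier, as the partner of the kinases Cdk4 and Cdk6, which phosphorylate the retinoblastoma protein and so release E2F transcription factors. Genes of the MCM subunits and of PCNA are textbook targets of E2F. TRH acts on pituitary cells through a receptor coupled to Gq, phospholipase C and calcium.

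Promoters are shown because the windows of the helicase genes held E2F words and that of the clamp gene did not. RefSeq windows of 300 bases, from 250 before the annotated start to 50 from the start on (assembly GRCr8), were held for 6 of the 8 genes, Mcm2, Mcm3, Mcm5, Mcm6, Mcm7 and Pcna. The E2F words searched on both strands were TTTCCCGC, TTTCGCGC, TTTGCCGC and TTTGGCGC, and words on opposite strands could overlap. All 5 MCM windows held at least 2 of these words, and the Pcna window held 0. Among all 33469 windows of that length, 2.14% held at least 1. A match describes the letters only, and no match says only that these letters are not in the window. The windows of 4 genes follow, 5′ to 3′ on the strand of the gene, with the bases of E2F words in capitals. They are the window with a pair of overlapping words beside the start (Mcm2), that with the most words (Mcm5), that of the most abundant gene (Mcm6) and the window without a word (Pcna).
Mcm2, chr4:122918045-122918344, minus strand: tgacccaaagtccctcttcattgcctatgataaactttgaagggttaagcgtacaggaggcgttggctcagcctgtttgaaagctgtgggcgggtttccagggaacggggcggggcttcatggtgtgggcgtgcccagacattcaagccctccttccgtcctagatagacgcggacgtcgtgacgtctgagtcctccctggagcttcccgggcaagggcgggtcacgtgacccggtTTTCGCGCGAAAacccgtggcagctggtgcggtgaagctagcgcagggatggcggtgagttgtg
Mcm5, chr19:13488563-13488862, plus strand: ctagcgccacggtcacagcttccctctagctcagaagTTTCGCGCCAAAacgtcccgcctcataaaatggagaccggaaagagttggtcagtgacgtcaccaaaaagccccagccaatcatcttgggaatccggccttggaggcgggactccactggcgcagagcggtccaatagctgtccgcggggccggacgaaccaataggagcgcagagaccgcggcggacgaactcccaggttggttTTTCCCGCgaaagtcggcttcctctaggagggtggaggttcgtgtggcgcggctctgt
Mcm6, chr13:42404303-42404602, minus strand: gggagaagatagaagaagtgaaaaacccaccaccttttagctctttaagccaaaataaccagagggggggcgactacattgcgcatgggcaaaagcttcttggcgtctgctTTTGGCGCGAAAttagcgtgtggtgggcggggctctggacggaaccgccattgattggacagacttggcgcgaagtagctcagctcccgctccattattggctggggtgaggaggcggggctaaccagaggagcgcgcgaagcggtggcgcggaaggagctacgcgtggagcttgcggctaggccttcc
Pcna, chr3:139955771-139956070, minus strand: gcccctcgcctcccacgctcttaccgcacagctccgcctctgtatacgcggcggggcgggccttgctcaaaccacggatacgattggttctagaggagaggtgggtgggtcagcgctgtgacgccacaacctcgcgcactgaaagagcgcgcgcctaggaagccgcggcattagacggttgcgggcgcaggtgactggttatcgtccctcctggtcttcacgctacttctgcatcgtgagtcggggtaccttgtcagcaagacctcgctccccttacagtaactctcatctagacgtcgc

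In Mcm2 the words TTTCGCGC on either strand overlapped and covered bases -14 to -3, where -1 is the last base before the start. Mcm3 had a word on the reverse strand at -6 to 2 and another at 14 to 21. In Mcm5 a pair of overlapping words lay at -213 to -202 and a further word at -8 to -1, next to the start. Mcm6 had an overlapping pair at -139 to -128, and Mcm7 had separate words at -233 to -226 and -52 to -45. The word CCAAT, the binding sequence of NF-Y, was in 5 of the 6 windows and in 37.5% of all windows; Mcm2 lacked it. GGGCGG, a word bound by Sp1 factors, was in 5 of 6 windows against 33.1% of all; Mcm5 lacked it. Of the words tied to signalling, the cyclic AMP response word TGACGTCA was in 1 window (Mcm5) against 1.83% of all, and the AP-1 words TGACTCA and TGAGTCA were in 0 of 6 against 4.63%. TTTGAA, the word of the cell cycle homology region, was in 1 window (Mcm2) against 18.3% of all.

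The libraries held 43504159 to 52134239 counts and 16073 to 16346 genes with a count. Of all genes, 14050 passed the filter on low counts and were tested with edgeR's quasi-likelihood test. Among the 8 genes, 7 passed and Ccnd1 did not. Libraries differed in how long genes compared with short ones: the median log2 deviation of the longest 2810 genes minus that of the shortest 2810 was 0.37 in control replicate 1, -0.44 in TRH replicate 3, and between -0.17 and 0.15 in the others. The values of Pcna, a short transcript, and of the longer MCM genes are therefore also given, as fold changes and correlations, after offsets that level this trend.

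All 6 helicase genes and Pcna were well expressed, with 79.3% to 94.5% of genes tested below them in CPM, and Ccnd1 had next to no counts. Levels between genes are given in TPM, which divide counts by gene length and then by the library total of these length-scaled counts. Over the 6 libraries the order of mean TPM was Mcm6, Pcna, Mcm7, Mcm5, Mcm2, Mcm4, Mcm3 and Ccnd1. Mcm6 stood first at 137 ± 9.61 TPM (SD, n = 6) and was above Pcna in 6 of 6 libraries. Pcna at 108 ± 13.1 TPM and Mcm7 at 107 ± 7.22 TPM (SD, n = 6 each) could not be ordered, as Pcna was higher in 3 of 6. Mcm7 was above Mcm5 in 6 of 6 libraries, by 1.52 times in the mean. Mcm5, Mcm2 and Mcm4 formed a middle set at 70.6 ± 6.44, 69.7 ± 7.0 and 65.1 ± 11.8 TPM (SD, n = 6 each), closer together than their spread. Mcm3 was lowest of the subunits at 45.0 ± 3.05 TPM (SD, n = 6), below Mcm4 in 6 of 6 libraries.

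**Figure D1:**
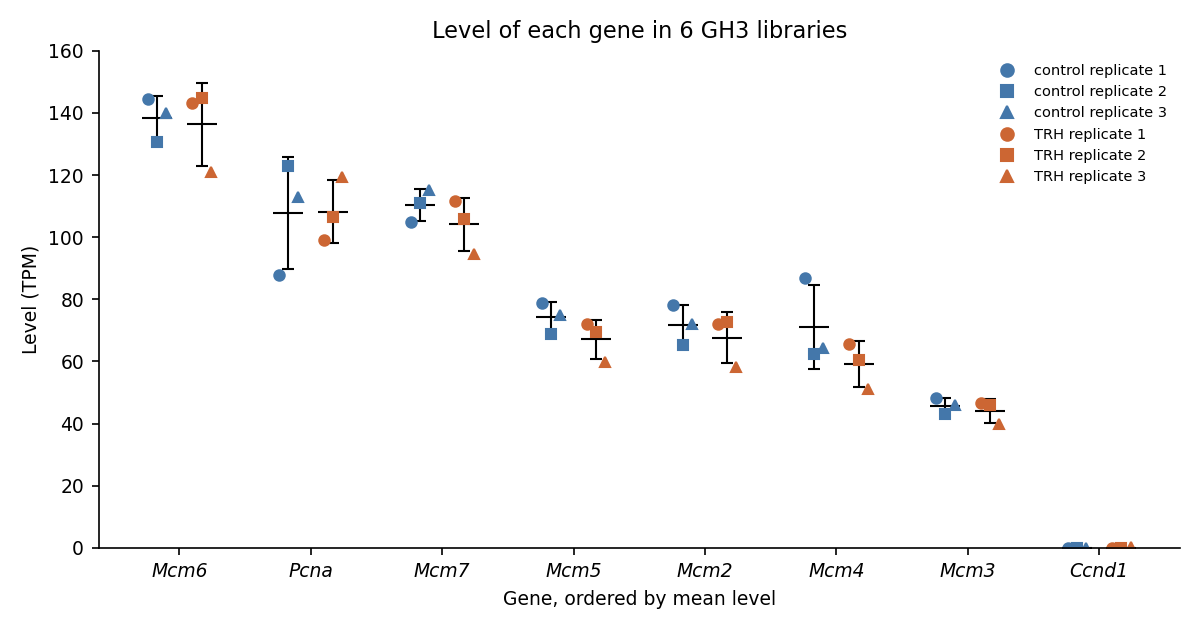
Level in TPM (linear axis from 0) of each gene in each library, ordered by mean level; blue marks are control and orange marks TRH libraries, and black bars give the mean ± SD of 3 libraries. Mcm6 lies on top, Mcm3 is the lowest of the MCM genes in every library, and Ccnd1 lies at 0 on this scale.

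The subunits of a ring with single copies thus had messenger levels that differed about 3-fold. The highest MCM gene exceeded the lowest by 2.99 to 3.14 times in each of the 6 libraries, and these extremes were Mcm6 and Mcm3 throughout. The 6 MCM genes together gave 512 ± 29.9 TPM (SD, n = 3) without and 478 ± 47.0 TPM (SD, n = 3) with TRH. Single libraries ran from 424 TPM in TRH replicate 3 to 541 TPM in control replicate 1, and the groups overlapped. In counts, the 6 genes took 0.0930 ± 0.00217% of a control library and 0.0892 ± 0.00473% of a TRH library (SD, n = 3 each).

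Neither the helicase genes nor Pcna passed the test for a difference with TRH. Of the 7 genes tested, 0 had a Benjamini-Hochberg adjusted p under 0.05 in edgeR, as did 0% of all 14050 genes (smallest adjusted p = 0.395). At an unadjusted p under 0.05 there were 0 of 7, against 8.99% of all genes. DESeq2's Wald test, which called 106 genes in all, called 0 of the 7. The fitted changes were small in both directions, 4 negative and 3 positive, with a median log2 fold change of -0.022 beside -0.0040 for all genes tested. Across all genes the median fell with gene length, from 0.12 in the shortest 2810 genes to -0.11 in the longest 2810. Among genes of 2615 to 3865 bases, which include Mcm2 to Mcm6, it was -0.044. For all 7 the 95% interval lay within 1.5-fold in either direction, which held for 54.6% of all genes. Groups of control and TRH values, in CPM (counts per library total, scaled by TMM), did not overlap with TRH lower in 0 of the 7 genes (10.2% of all genes) and with TRH higher in 0 of the 7 (6.80% of all genes). After length offsets, every TRH value lay above every control for Mcm2 and Mcm6, though edgeR with these offsets called neither (adjusted p = 0.795 and 0.587). The share of all genes without overlap on that scale was not computed, so this separation has no background to be read against.

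**Figure D2:**
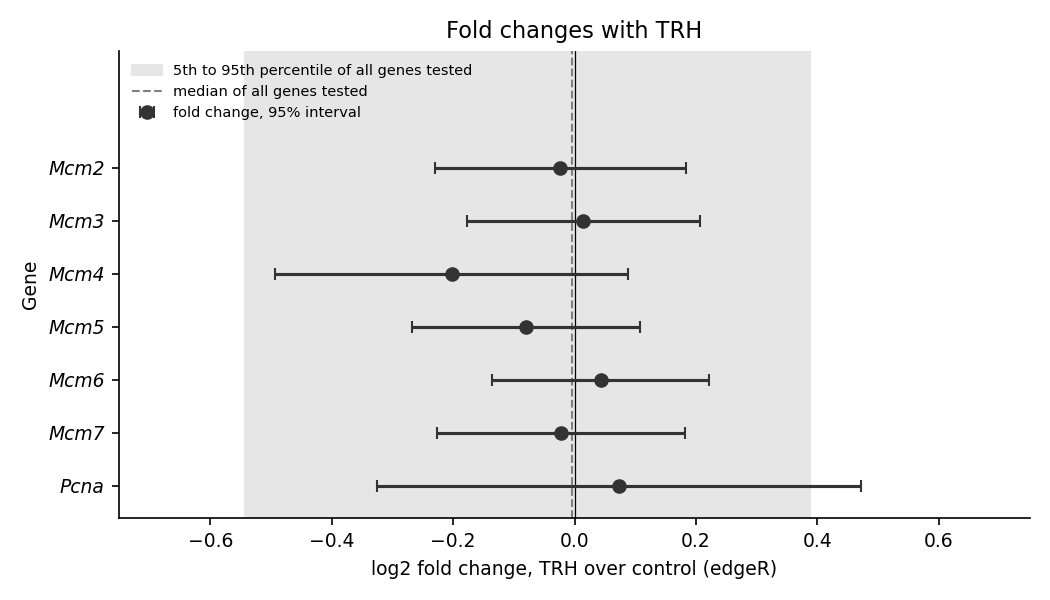
The edgeR log2 fold change of TRH over control for 7 genes, with 95% intervals; the grey band spans the 5th to 95th percentile of all genes tested (-0.54 to 0.39) and the dashed line is their median. All intervals include 0, and those of Mcm4 and Pcna are the widest.

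MCM2, MCM6, MCM4 and MCM7 are neighbours along the ring and are described first. Mcm2 (ENSRNOG00000016316, 3261 bases), whose product also binds histones, was at 150, 136 and 141 CPM in control replicates 1 to 3 and at 145, 145 and 130 CPM with TRH. Values of the groups overlapped, and TRH replicate 3 was lowest. Its log2 fold change was -0.023 ± 0.090 (SE), with a 95% interval from -0.23 to 0.18 (edgeR adjusted p = 0.942), and with length offsets 0.052 (edgeR adjusted p = 0.795). The offset values were 140.4, 140.1 and 134.6 CPM in controls and 143.9, 143.9 and 142.5 CPM with TRH, without overlap of the groups. How often other genes separate on this scale was not computed.

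Mcm4 (ENSRNOG00000001833, 3339 bases), which with Mcm6 and Mcm7 forms the core that unwinds DNA in vitro, had the most negative fitted change of the 7 genes. Control replicates 1 to 3 held 171, 133 and 129 CPM, and the TRH libraries 135, 123 and 118 CPM. Control replicate 1 stood above the other 5 libraries, and TRH replicate 1 exceeded both remaining controls. The log2 fold change was -0.20 ± 0.13 (SE), with a 95% interval from -0.49 to 0.088 (edgeR adjusted p = 0.633). Without control replicate 1 it was -0.064 (edgeR adjusted p = 0.986), and with length offsets and all libraries -0.12 (edgeR adjusted p = 0.654).

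Mcm6 (ENSRNOG00000003703, 2917 bases), the most abundant subunit, varied little. Its values were 248, 243 and 245 CPM in controls and 257, 258 and 243 CPM with TRH. TRH replicates 1 and 2 lay above every control, and TRH replicate 3 lay just below the lowest control. The log2 fold change was 0.043 ± 0.078 (SE), with a 95% interval from -0.14 to 0.22 (edgeR adjusted p = 0.853), and with length offsets 0.10 (edgeR adjusted p = 0.587). After the offsets the groups did not overlap, at 235, 250 and 236 CPM in controls and 257, 257 and 260 CPM with TRH. Here too the share of all genes that separate was not computed.

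For Mcm7 (ENSRNOG00000001349, 2484 bases), the shortest of the helicase transcripts, control replicates 1 to 3 held 154, 176 and 172 CPM and the TRH libraries 170, 161 and 162 CPM. The TRH values all fell inside the range of the controls. The log2 fold change was -0.022 ± 0.089 (SE), with a 95% interval from -0.23 to 0.18 (edgeR adjusted p = 0.945), and with length offsets 0.017 (edgeR adjusted p = 0.957). In RefSeq the miRNA genes Mir25, Mir93 and Mir106b lie inside Mcm7, and Cops6 and Ap4m1 are its close neighbours. The rule by which the authors counted reads over overlapping genes was not given in the sources used here. RefSeq also places a pseudogene, Cct7-ps4, inside Mcm3 and a transfer RNA gene inside Mcm6.

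MCM3 and MCM5 close the ring, and the junction of MCM5 with MCM2 is the gate through which DNA enters. Mcm3 (ENSRNOG00000012543, 2932 bases) held 83.3, 80.7 and 80.6 CPM in controls and 84.2, 82.7 and 80.2 CPM with TRH. All 6 values lay within a few CPM of each other, with the groups interleaved. Its log2 fold change was 0.014 ± 0.083 (SE), with a 95% interval from -0.18 to 0.21 (edgeR adjusted p = 0.965), and with length offsets 0.076 (edgeR adjusted p = 0.716).

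Mcm5 (ENSRNOG00000014336, 3163 bases) came closest to separate groups in CPM among the helicase genes. Control replicates 1 to 3 held 147, 139 and 142 CPM, and the TRH libraries 140, 134 and 130 CPM. Only TRH replicate 1 overlapped the controls, by lying above control replicate 2. The log2 fold change was -0.080 ± 0.082 (SE), with a 95% interval from -0.27 to 0.11 (edgeR adjusted p = 0.740). With length offsets it was -0.0083 (edgeR adjusted p = 0.977), and the offset values of the groups overlapped, at 138, 143 and 136 CPM in controls and 139.5, 134 and 142 CPM with TRH.

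Pcna (ENSRNOG00000021264, 1160 bases) had the widest interval and the widest spread of the 7 genes. Control replicates 1 to 3 held 60.1, 91.0 and 78.4 CPM, and the TRH libraries 70.7, 75.4 and 95.3 CPM. The lowest value was in control replicate 1 and the highest in TRH replicate 3, the same libraries that lay farthest apart in the trend with gene length. The log2 fold change was 0.073 ± 0.17 (SE), with a 95% interval from -0.33 to 0.47 (edgeR adjusted p = 0.895), and its sign rested on either of these libraries. Without control replicate 1 it was -0.074 (edgeR adjusted p = 0.986) and without TRH replicate 3 it was -0.076 (edgeR adjusted p = 0.952). With length offsets and all libraries it was 0.031 (edgeR adjusted p = 0.944).

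Ccnd1 (ENSRNOG00000020918, 3876 bases) had next to no counts assigned to it, and whether this is its true level in the cells or an effect of the annotation or counting was not tested. Control replicates 1 to 3 held 0, 2 and 5 counts, and TRH replicates 1 to 3 held 4, 0 and 15 counts. This made 7 counts in controls and 19 with TRH, and TRH replicate 3 alone gave 15 of these 19. A count of 0 allows up to 3 counts, or 0.0688 CPM in control replicate 1 and 0.0660 CPM in TRH replicate 2, for counting error only. In TPM the gene reached at most 0.0458 in a control and 0.126 in a TRH library, while the least abundant MCM gene, Mcm3, was never below 39.7 TPM. Without the filter, edgeR gave a log2 fold change of 1.40 with an SE of 1.36 (edgeR adjusted p = 0.722), so neither a rise nor a fall could be told at these counts. Whether other D-type cyclins took part is not analysed here, because the deposited tables pair no other identifier with a symbol.

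Most helicase messengers were also among the steadiest of the transcriptome on the CPM scale. The coefficient of variation (CV, the SD over the mean of all 6 libraries) was 2.03% for Mcm3, 2.80% for Mcm6, 4.15% for Mcm5, 5.0% for Mcm7 and 5.02% for Mcm2. The median gene tested had a CV of 14.6%, and the 2810 most abundant genes had a median of 9.81%. Mcm3 ranked 22 and Mcm6 ranked 85 from the lowest of 14050 genes. Among the 2810 most abundant genes the ranks were 10 for Mcm3, 47 for Mcm6, 178 for Mcm5, 325 for Mcm7 and 331 for Mcm2. Mcm4 ranked 2052 there. Counting error alone would give a CV of 1.62% for Mcm3, so its libraries differed by little more than that. Mcm4 at 13.9% and Pcna at 16.6% were ordinary in this respect.

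This steadiness depended on the scale. In TPM the CV of Mcm3 was 6.77%, with 11.1% of genes lower, and that of Mcm2 was 10.1%, with 26.3% of genes lower. After length offsets Mcm2 and Mcm5 were the steadiest of the 7, at 2.48% and 2.53%, and ranked 29 and 33 of 14050. Mcm3 then stood at 3.86% and Mcm6 at 4.47%. On all 3 scales the CVs of Mcm2, Mcm3, Mcm5, Mcm6 and Mcm7 lay below the median gene, and on each scale Mcm4 and Pcna varied more than these 5 genes.

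**Figure D3:**
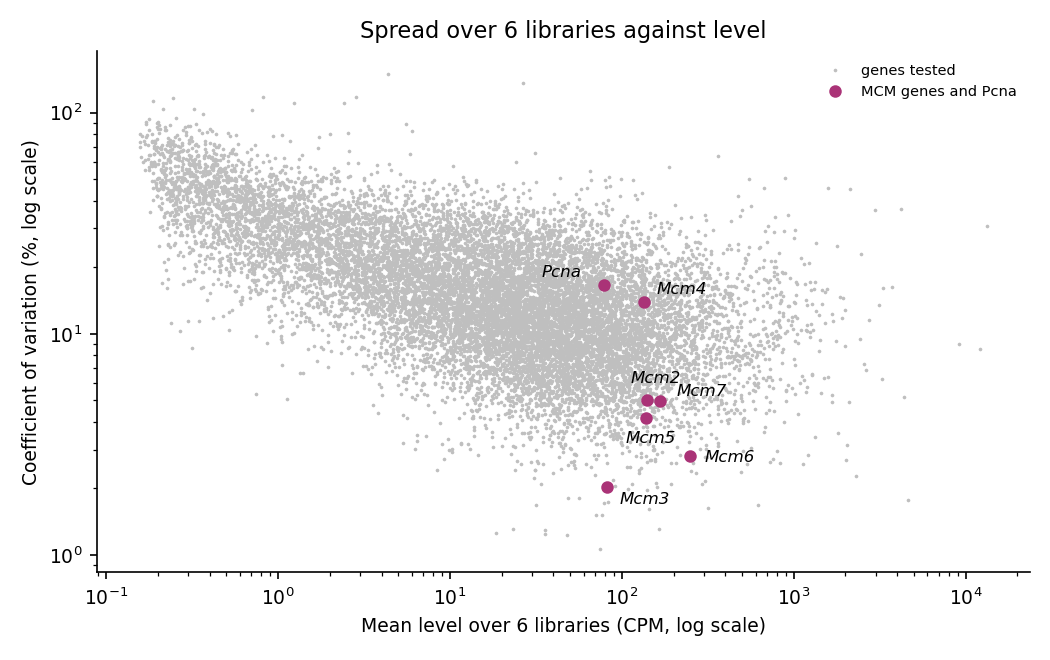
Coefficient of variation over 6 libraries against mean level in CPM (both axes logarithmic) for all genes tested (grey) and the 7 genes (purple). Mcm3 and Mcm6 lie near the lower edge at 2.03% and 2.80%, while Pcna and Mcm4 lie within the cloud at 16.6% and 13.9%.

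Pcna varied in the opposite direction to 5 of the 6 helicase genes across libraries, all but Mcm7, and after length offsets r was below 0 for Mcm2 and Mcm4 only. Over the 6 libraries, which share the trend with gene length, Pearson's r of log2 CPM between Pcna and Mcm2 was -0.97, and Pcna ranked 13989 of 14049 genes in likeness to Mcm2. Pcna lay 0.37 below its mean (log2) in control replicate 1 and 0.30 above it in TRH replicate 3, while Mcm2 lay 0.093 above and 0.11 below. With length offsets r between Pcna and Mcm2 was -0.089. For Pcna and Mcm5 r changed from -0.75 to 0.56, for Pcna and Mcm3 from -0.82 to 0.51, and for Pcna and Mcm6 from -0.52 to 0.46. Pcna and Mcm4 stayed opposed, at -0.81 without and -0.53 with the offsets. Mcm7 was on the side of Pcna, at r = 0.53 without and 0.77 with the offsets.

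**Figure D4:**
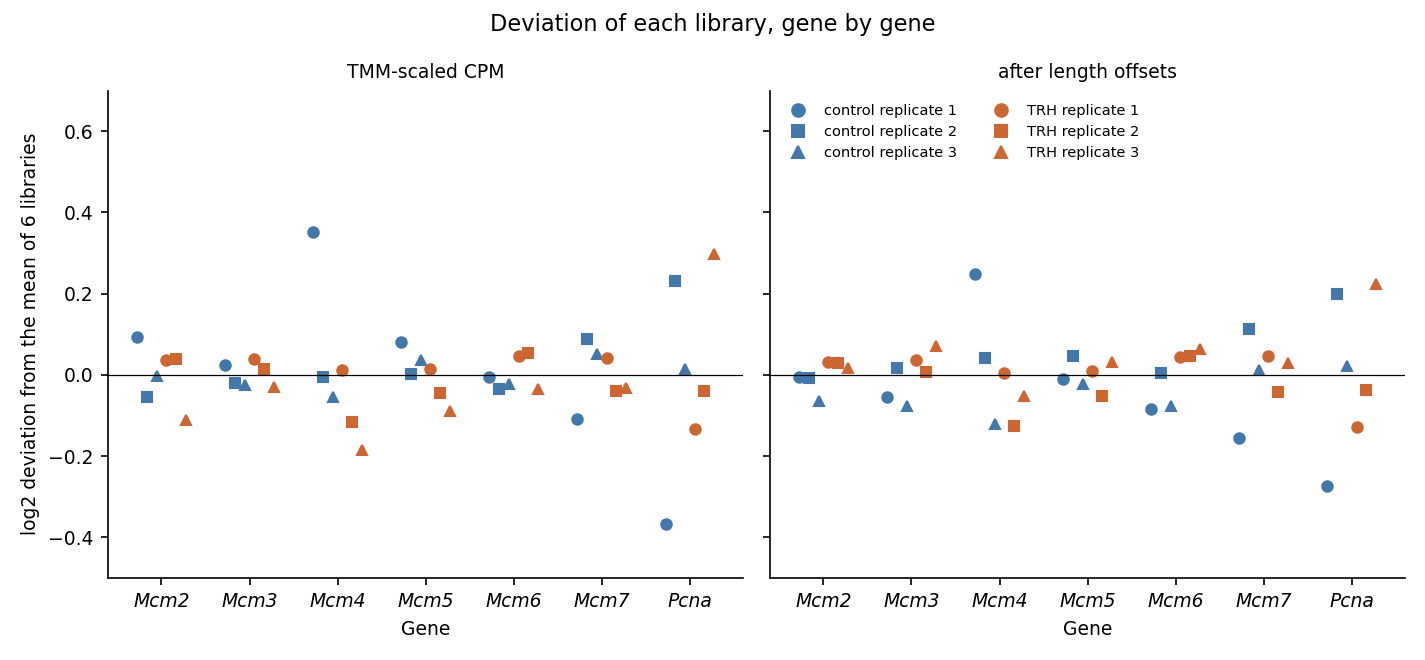
Log2 deviation of each library from the mean of 6 libraries, gene by gene, in TMM-scaled CPM (left) and after length offsets (right); blue is control, orange is TRH. On the left control replicate 1 is highest for Mcm4 and lowest for Pcna. On the right Mcm2 and Mcm5 lie closest together (CV 2.48% and 2.53%) and Pcna is the most spread (CV 13.1%).

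Among the helicase genes themselves the likeness was moderate. Over the 15 pairs of MCM genes r ran from -0.44 (Mcm4 and Mcm7) to 0.86 (Mcm4 and Mcm5), with a median of 0.42, and 10 of 15 were above 0. For the highest pair, Mcm5 ranked 922 of 14049 genes in likeness to Mcm4. The median was 0.28 with length offsets, and 0.77 for deviations from the group means without them. The offsets took Mcm4 and Mcm5 to 0.28, and Mcm5 and Mcm7 from -0.059 to 0.62. The 2 other genes picked for the highest r with the summed CPM of the 6 MCM genes were ENSRNOG00000019968 and ENSRNOG00000006441. Each was at 0.99 over 6 libraries, the top of all other genes tested. The former was at 65.5, 59.7 and 60.7 CPM in controls and 62.9, 59.6 and 55.8 CPM with TRH, highest in control replicate 1 and lowest in TRH replicate 3 like the sum itself. That match follows from the choice by r and tells nothing further about these genes. Control replicate 1 and TRH replicate 3 also lay farthest apart in the trend with gene length. The deposited tables give no symbol for either. Leaving out control replicate 1 and TRH replicate 3 turned the median r of the 15 pairs to -0.29 over 4 libraries, so the likeness rested on those libraries.

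Within a library, the ratio of MCM messengers does not depend on scaling, and a few ratios separated the groups by small amounts. The count ratio of Mcm5 to Mcm6 was 0.591, 0.572 and 0.581 in control replicates 1 to 3 and 0.545, 0.520 and 0.537 with TRH. Every TRH value lay below every control, by 0.12 in the mean log2 ratio (SD 0.024 in controls and 0.034 with TRH, n = 3 each). The ratio of Mcm3 to Mcm5 was 0.568, 0.581 and 0.567 in controls and 0.601, 0.616 and 0.616 with TRH, a log2 ratio higher by 0.094. Mcm4 to Mcm6 was the third separated pair, with control replicate 1 at 0.688 and the other 5 libraries between 0.478 and 0.548; the lowest control (0.526) and the highest TRH value (0.525) nearly touched. The two-sided exact permutation test gave p = 0.1 for each, the smallest that 3 against 3 allows, and an adjusted p of 0.6 over the 21 pairs of the 7 genes.

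These 3 separated pairs of 15 stood close to the background. Of the other genes tested, 16.8% had a ratio to Mcm6 whose groups did not overlap, and 16.3% had such a ratio to Mcm3. With length offsets, 3 of 15 pairs were separated in the same libraries, Mcm5 to Mcm6 and Mcm3 to Mcm5 among them. Mcm4 to Mcm6 gave way to Mcm2 to Mcm6. The background shares above hold for count ratios without offsets, and none was computed for ratios with offsets. As shares of the summed MCM TPM, Mcm6 made up 27.0 ± 0.339% of a control and 28.5 ± 0.481% of a TRH library, and Mcm5 14.5 ± 0.173% and 14.03 ± 0.102% (SD, n = 3 each). Mcm3 made up 8.94 ± 0.0268% and 9.24 ± 0.117% (SD, n = 3 each). The share of Mcm4 in control replicate 1 was 16.02%, against 12.1% to 12.99% elsewhere, and Mcm7 was lowest there at 19.4%.

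**Figure D5:**
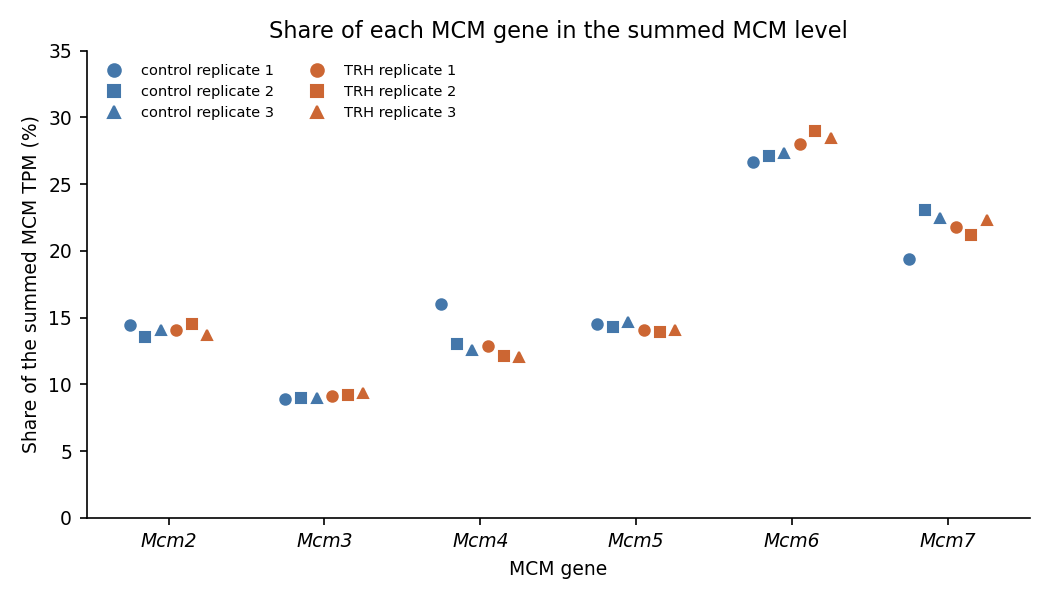
Share of each MCM gene in the summed MCM TPM, in percent (axis from 0), by library; blue is control, orange is TRH. Mcm6 takes 26.7% to 29.0% and Mcm3 8.92% to 9.36%, and control replicate 1 stands apart for Mcm4 and Mcm7.

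The clamp relative to the helicase showed no separation by treatment. Pcna TPM over the mean TPM of the 6 MCM genes was 0.975, 1.53 and 1.32 in control replicates 1 to 3 and 1.16, 1.28 and 1.69 in TRH replicates 1 to 3. The lowest ratio was again in control replicate 1 and the highest in TRH replicate 3. The controls averaged 1.28 ± 0.281 (SD, n = 3) and the TRH libraries 1.38 ± 0.275 (SD, n = 3), a difference smaller than the spread.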

How the data were processed

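RNA of 3 control and 3 TRH-treated GH3 samples was sequenced on an Illumina XTen instrument, per the labels' protocols. HISAT2 and bedtools are named in the submitters' processing notes; versions, genome build, annotation and strand setting were not given in the sources used here. Raw counts per Ensembl gene were deposited, and the authors added a second table with gene length, FPKM and TPM; recomputing both from counts and lengths gave the deposited FPKM and TPM to rounding. Symbols of the 8 genes came with their identifiers. The RefSeq table (GRCr8) holds an Ensembl identifier in 0 of 47357 rows, so the lists of other replication and G1 genes and the pituitary markers are not analysed here.

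Counts were fitted with edgeR 4.0.16 (R 4.3.3): TMM, filterByExpr, quasi-likelihood test on 2 groups, Benjamini-Hochberg over 14050 genes, threshold 0.05. Intervals are 95%. On simulated counts with 100 genes changed 1.5-fold and 100 changed 2-fold, the test called 34% and 76% of them. The simulation drew each count independently, changed only genes above a minimum level and held no trend with gene length. Its shares may therefore not hold for the real libraries. Alternatives used DESeq2 1.42.0, limma 3.58.1 (log2 of TPM + 1 or + 0.1, and voom), other filters, a replicate block, loess length offsets (span 0.5) and left-out libraries. The genes named, the lists and the tests were chosen with earlier results of these data known, the list of 8 identifiers among them. Beside these, the plan was to name 2 genes per list and direction, which could not be done because the lists were not matched. The 2 genes most like the summed MCM level were taken as planned. CV scales and ratios with length offsets were added after seeing the data. The count ratios and their permutation test were not among the tests planned.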

Additional observations from a re-analysis of the deposited data

How the results depend on the processing

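In 17 alternatives for each of the 7 genes tested, no adjusted p passed the threshold; the values ran from 0.449 (Mcm4, without control replicate 2) to 0.996. Direction held in every alternative for Mcm4 and Mcm5, though length offsets moved Mcm5 from -0.080 to -0.0083. For each of the others it turned in at least one. Length offsets gave 0.052 for Mcm2 and 0.017 for Mcm7. On log2(TPM + 1), with and without the filter, Mcm3 was -0.052 and Mcm6 -0.025, and on log2(TPM + 0.1) they were -0.053 and -0.025. With single libraries left out, Mcm2 ran from -0.056 to 0.018 (positive without control replicate 1 or TRH replicate 3), Mcm7 from -0.079 to 0.016 (positive without control replicate 2 or 3) and Pcna from -0.076 to 0.22. Without both control replicate 1 and TRH replicate 3, Mcm2 was 0.066, Pcna -0.21 (edgeR adjusted p = 0.720) and the median r over the MCM pairs -0.29 in place of 0.42. The cause was not tested. The number of genes called was 0 in edgeR (1263 at an unadjusted p under 0.05), 106 in DESeq2, 0 to 1 with single libraries left out (1 without TRH replicate 3), and 1 without both end libraries. The summed MCM level, as the log2 of TRH over control, was -0.098 in TPM, -0.037 in CPM and -0.15 to -0.019 with single libraries left out. Alternatives for Ccnd1 other than those that keep low counts could not be run, since it did not pass the filter.

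A replicate block in edgeR called 0 genes and 0 of the 7, with 1232 genes at an unadjusted p under 0.05, and gave Pcna 0.082 (edgeR adjusted p = 0.889); it changed no call. The labels tie equal numbers to no shared culture, and the deviations of libraries with equal numbers correlated at 0.29, -0.26 and -0.12. Ccnd1 had 26 counts over 6 libraries, 11 without TRH replicate 3, too few to tell a change.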
